A study of Mus musculus with 6 samples.

Results

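The BAF complex, the mammalian SWI/SNF chromatin remodeller, exchanges a set of its subunits when a dividing neural progenitor becomes a neuron, and the 10 genes of that exchange were followed here in cells of the Atoh1 lineage. The progenitor subunits were Actl6a, Phf10, Dpf2 and Ss18. The neuronal subunits were Actl6b, Dpf1, Dpf3 and Ss18l1, and the alternative ATPases Smarca4 and Smarca2 completed the set. The genes were chosen by name, and every probe set annotated with exactly 1 of these symbols was taken. All 10 genes were found, with 21 probe sets, out of 18193 genes with 34945 such probe sets.

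Cells were sorted from Swiss Webster mouse embryos that carried an Atoh1-CreER transgene and the RCE reporter, which turns on EGFP permanently in a cell once Cre has acted. Pregnant dams received tamoxifen, which activates CreER, by gavage at 4 mg for 35 g of body weight. Tamoxifen was given at E10.5 for the early group and at E13.5 for the late group. At E14.5 in both, EGFP-positive cells of the r1/isthmus region, from which much of the cerebellum forms, were sorted by FACS. There were 3 samples per group, and the total RNA of each was hybridised to 1 Affymetrix array. Both groups carried the same transgenes, and the label depends on the cells in which the Atoh1 driver was active at the time of tamoxifen. The early cells had therefore had more days since labelling than the late cells when both were collected. The labels do not say that the samples came from separate litters or how many embryos each held, so the p-values are set against the spread of these samples alone, and that spread may be technical.

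BAF complexes use ATP to move or evict nucleosomes and so set which enhancers and promoters are open. In dividing neural progenitors the complex holds the actin-related protein BAF53a (Actl6a), the PHD finger proteins BAF45a (Phf10) and BAF45d (Dpf2) and the coactivator SS18. As neurons leave the cell cycle these give way to BAF53b (Actl6b), BAF45b and BAF45c (Dpf1 and Dpf3) and CREST (Ss18l1), a form linked to dendrite growth and activity-dependent transcription.

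The promoters of Actl6a and Actl6b are shown because this pair, whose proteins replace each other in the same position of the complex, differed in opposite directions between the groups. The sequences are from RefSeq on GRCm38.p6, from 250 bases before to 50 bases after the annotated start, 5′ to 3′ on the plus strand, which is the strand of both genes. Actl6a is at chr3:32708296-32708595 and Actl6b at chr5:137553296-137553595. Capitals mark each match to the CCAAT box or to the GC box GGGCGG, read on either strand.
Actl6a: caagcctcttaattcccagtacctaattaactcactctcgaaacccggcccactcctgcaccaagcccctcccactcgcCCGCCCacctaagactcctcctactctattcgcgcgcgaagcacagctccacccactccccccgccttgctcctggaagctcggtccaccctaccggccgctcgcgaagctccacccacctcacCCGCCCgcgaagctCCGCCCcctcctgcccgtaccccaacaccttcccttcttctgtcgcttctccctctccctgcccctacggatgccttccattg
Actl6b: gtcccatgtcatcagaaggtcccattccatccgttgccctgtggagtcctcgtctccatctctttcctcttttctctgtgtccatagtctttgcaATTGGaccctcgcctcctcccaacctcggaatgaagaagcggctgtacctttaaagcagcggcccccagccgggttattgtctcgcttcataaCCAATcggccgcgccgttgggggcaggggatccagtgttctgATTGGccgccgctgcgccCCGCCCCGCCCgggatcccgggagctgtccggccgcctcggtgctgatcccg
The Actl6a window held 3 GC boxes and no CCAAT box, with a GC content of 63.7%. The Actl6b window held 3 CCAAT boxes and 2 GC boxes that overlap each other, with a GC content of 61.7%. Among 32851 mouse promoters of this length, CCAAT was present in 37.4% and GGGCGG in 35.7%, and the median GC content was 52.7%.

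Promoters of 9 of the 10 genes were matched by symbol. CCAAT boxes were counted in Actl6b (3), Dpf3 (3), Dpf1 (2) and Dpf2 (1), and in none of the other 5 matched promoters. GC boxes were counted in 8 of the 9, from 1 in Dpf3 to 5 in Phf10, and the promoter without one was that of Dpf2. Dpf2 had 2 matches to GCGCNTGCG, part of the NRF1 site, and Smarca4 had 1, against 6.31% of all promoters with a match. No matched promoter held an E2F site as TTTGGCGC, TTTCCCGC, TTTGCCGC or TTTCGCGC (2.26% of all promoters), the cell cycle element TTTGAA (17.9%), TATAAA (13.6%) or the RE1 half-sites TTCAGCACC and GGACAGCGC (0.761%). All motifs were searched on both strands, overlapping matches were counted separately, and a match is a description of the letters only.

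All signals below are MAS5 signals in linear units, on arrays whose trimmed mean averaged 500. Array medians ran from 97.5 to 111 units. A probe set was tested where it was above the array's median on at least 3 of the 6 arrays, which 23491 probe sets were, and called at a Benjamini-Hochberg adjusted p below 0.05 in limma. Of these, 25.9% were called, 13.4% higher in early and 12.5% higher in late cells. Log2 signals correlated between arrays with Spearman values of 0.874 to 0.893 within the early group, 0.938 to 0.945 within the late group and 0.845 to 0.885 between groups. The Actb 3′ to 5′ signal ratio, which rises as RNA degrades, was 17.4 to 26.2 in early and 12.9 to 16.1 in late arrays. The same ratio for Gapdh was 10.6 to 13.2 in early and 9.47 to 12.1 in late arrays, which overlap. Early replicate 3 had an Xist signal of 166 against 8141 to 19797 on the other 5 arrays, and late replicate 3 had an Eif2s3y signal of 14.1 against 826 to 1772 on the others. These 2 arrays thus carried the transcripts of 1 sex and the other 4 of both, so counts are also given without them.

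Most neuronal subunits were higher in the early-labelled cells and most progenitor subunits in the late-labelled cells. Taking the brightest probe set of each gene, 3 of 4 neuronal genes (Actl6b, Dpf1 and Ss18l1) and the ATPase Smarca2 were higher in early cells, and 3 of 4 progenitor genes (Actl6a, Dpf2 and Ss18) were higher in late cells. Phf10, Dpf3 and Smarca4 did not pass. In these sorted populations, fewer cells of a type and less RNA per cell cannot be told apart. Over the 11071 genes tested this way, 16.2% were higher in early and 13.9% in late cells, and the median log2 difference, early minus late, was -0.03. The progenitor genes had a median log2 difference of -1.21 and the neuronal genes of 1.72.

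Of the 21 probe sets, 17 were tested, 4 were higher in early cells, 7 were higher in late cells and 6 did not pass. Over all tested probe sets, 13.4% were higher in early and 12.5% in late cells. In 5 of the 17 every early array was above every late array, which held for 22.1% of all tested probe sets, and in 7 every late array was above every early array, which held for 24.8%. With early replicate 3 and late replicate 3 both left out, a choice made after the data were seen, 2 arrays a group remained. Then 1 probe set, of Actl6b, stayed higher in early cells, and 3, all of Actl6a, stayed higher in late cells. In that fit Actl6a (adjusted p = 0.0430) and Actl6b (adjusted p = 0.0423) still passed by their brightest probe sets. Dpf2 (0.0745), Ss18 (0.0555), Ss18l1 (0.0637), Smarca2 (0.0715) and Dpf1 (0.153) did not, with their directions kept.

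**Figure D1:**
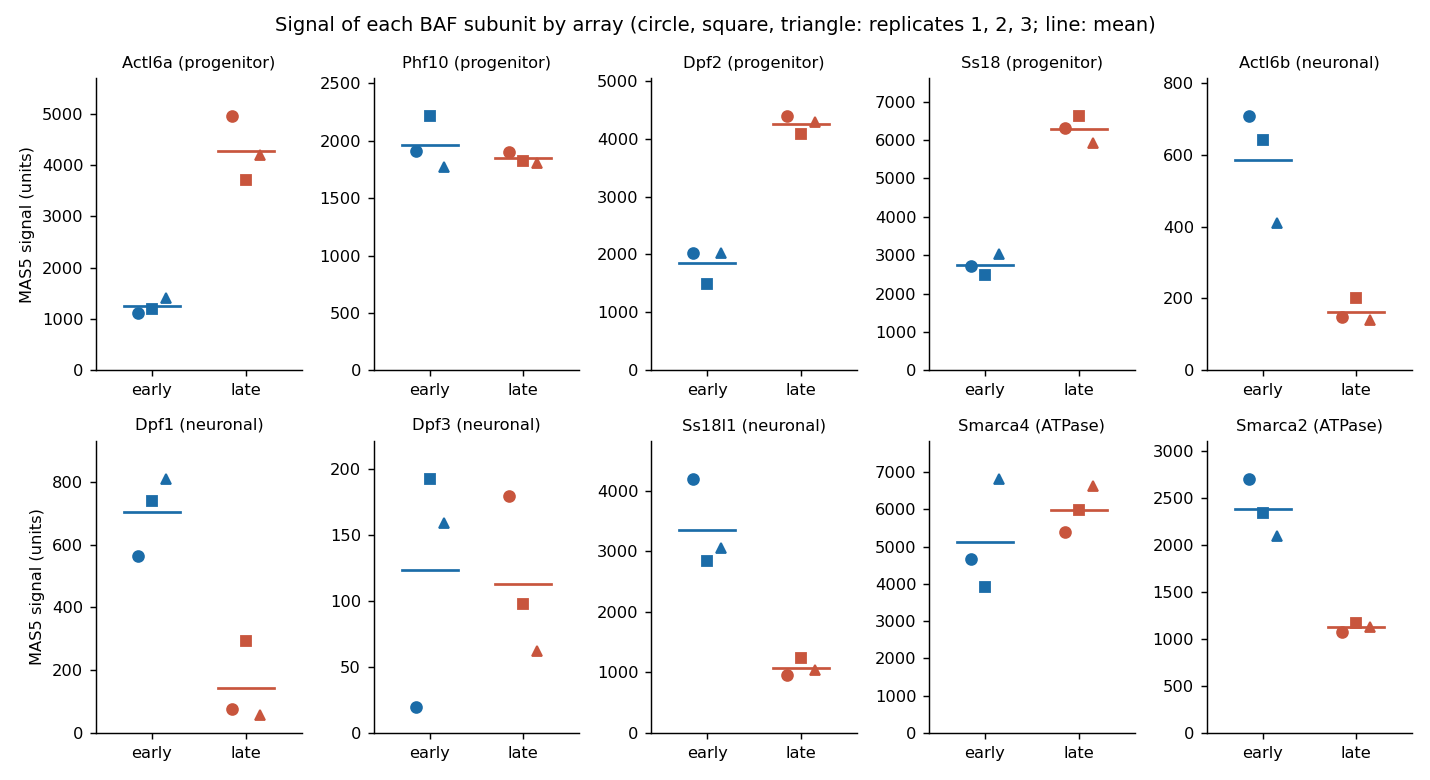
MAS5 signal in linear units on each of the 6 arrays for the brightest probe set of each BAF subunit, by group, with symbols for replicates and a line for the group mean; each panel has its own axis from 0. The groups do not overlap for Actl6a, Dpf2, Ss18, Actl6b, Dpf1, Ss18l1 and Smarca2, and they overlap for Phf10, Dpf3 and Smarca4.

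Actl6a, the actin-related subunit of progenitor BAF that is also part of the INO80 and TIP60 complexes, was higher in late cells by each of its 3 probe sets. The brightest, 1456730_x_at, read 1113, 1198 and 1418 units in early replicates 1 to 3 and 4950, 3703 and 4192 units in late replicates 1 to 3. The lowest late array stood well above the highest early array. The means were 1243 ± 158 units in early and 4282 ± 628 units in late cells (SD, n = 3 each), a log2 difference of -1.78 ± 0.20 (SE), or 3.44-fold, with an adjusted p of 0.00271 in limma. The suffix _x marks probes that can match other transcripts, and the other probe sets carry no such mark. Of these, 1416569_at went from 441 ± 87.9 to 1865 ± 186 units (4.28-fold higher in late, adjusted p = 0.00230, SD, n = 3). The third, 1429883_at, went from 951 ± 348 to 2734 ± 539 units (2.96-fold, adjusted p = 0.0147), and its call was lost without late replicate 1 (0.0594) or late replicate 3 (0.0537). The 3 probe sets thus differed in size but not in direction, and on all 3 the groups were apart.

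Ss18, the coactivator subunit of progenitor BAF, was higher in late cells by both of its tested probe sets. The brighter, 1419360_a_at, read 2714, 2487 and 3037 units in early and 6307, 6617 and 5932 units in late replicates 1 to 3. The arrays formed tight, separate groups. The means were 2746 ± 277 and 6285 ± 343 units (SD, n = 3 each), a log2 difference of -1.20 ± 0.17 (SE), or 2.29-fold higher in late cells (adjusted p = 0.00564). The dimmer 1436257_at read 124, 35.6 and 51.5 units in early cells, below the array median in 2 of them, and 386, 791 and 328 units in late cells. It passed the filter with 4 arrays above their median, all late ones among them. With the filter at the 70th percentile it was not tested, so it adds little to the brighter probe set. Its log2 difference was -2.93 ± 0.55 (adjusted p = 0.0131), which became -2.06 when signals below each array's median were set to it. The last, 1419361_at, was dim on every array, at 5.96 to 89.8 units, and was not tested.

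Dpf2, the BAF45d subunit with paired PHD fingers, which is made in many cell types, was higher in late cells by both probe sets. The brighter, 1416534_at, read 2030, 1489 and 2019 units in early and 4383, 4087 and 4295 units in late replicates 1 to 3. The late arrays lay close together and all above the early ones. The means were 1846 ± 309 and 4255 ± 152 units (SD, n = 3 each), a log2 difference of -1.22 ± 0.20 (SE), or 2.33-fold (adjusted p = 0.00788). The other, 1429903_at, read 238, 159 and 108 units in early and 427, 619 and 396 units in late cells. It was 2.95-fold higher in late cells (adjusted p = 0.0219), and the call was lost without late replicate 1 (0.0658), 2 (0.0767) or 3 (0.0588).

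Phf10, the BAF45a subunit known for supporting progenitor division, did not follow the other progenitor subunits. Its brighter probe set, 1449085_at, read 1909, 2212 and 1768 units in early and 1906, 1825 and 1810 units in late replicates 1 to 3. The groups overlapped, with the highest and the lowest array both in the early group. The log2 difference was 0.08 (95% interval -0.34 to 0.50, adjusted p = 0.760), an interval that excludes differences as large as those of Actl6a, Ss18 and Dpf2. On 1435774_at all early arrays (1122, 844 and 658 units) were above all late arrays (552, 650 and 628 units), by 1.40-fold, but the difference did not pass (log2 0.49, 95% interval -0.10 to 1.08, adjusted p = 0.190).

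Actl6b, the neuron-specific BAF53b, had 1 probe set, 1422564_at, which read 708, 642 and 410 units in early and 148, 202 and 141 units in late replicates 1 to 3. Every early array was above every late array, and early replicate 3 was the lowest of its group. The means were 586 ± 157 and 164 ± 33.2 units (SD, n = 3 each), a log2 difference of 1.82 ± 0.28 (SE), or 3.54-fold higher in early cells (adjusted p = 0.00682). Of all tested probe sets, 88.7% had a smaller difference in size, and for the brightest Actl6a probe set this share was 88.2%.

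Ss18l1 encodes CREST, the coactivator that takes the place of SS18 in neurons. Its probe set 1436911_at read 4192, 2834 and 3051 units in early and 952, 1243 and 1043 units in late replicates 1 to 3. The lowest early array was far above the highest late array. The means were 3359 ± 729 and 1079 ± 149 units (SD, n = 3 each), a log2 difference of 1.63 ± 0.23 (SE), or 3.09-fold higher in early cells (adjusted p = 0.00510). A further probe set, 1447700_x_at, stayed at 11.5 to 17.0 units on all arrays and was not tested.

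Dpf1, the BAF45b subunit of neurons, read 563, 740 and 808 units in early and 76.8, 294 and 56.2 units in late replicates 1 to 3 on 1420530_at. All early arrays were above all late arrays, and late replicate 2 stood apart from late replicates 1 and 3, which were below the median of their arrays. The means were 704 ± 127 and 142 ± 132 units (SD, n = 3 each), a log2 difference of 2.68 ± 0.62 (SE), or 6.43-fold higher in early cells (adjusted p = 0.0249). With low signals set to the array median the log2 difference was 2.29, and without late replicate 2 it was 3.40. The call was lost without early replicate 2 (0.0554) or 3 (0.0623) and without late replicate 1 (0.0890) or 3 (0.0760). The other Dpf1 probe set, 1420529_at, read 6.28 to 96.5 units and was not tested.

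Dpf3, the BAF45c subunit, which is known from muscle as well as from neurons, was close to background. Its probe set 1441659_at read 19.5, 192 and 159 units in early and 179, 97.7 and 62.1 units in late replicates 1 to 3, with only 3 arrays above their median. The values of both groups were mixed. The log2 difference of -0.29 had a 95% interval of -2.54 to 1.96 (adjusted p = 0.845) and turned to 0.26 with low signals set to the array median, so no direction can be given. The probe set 1450162_at read 1.499 to 49.7 units and was not tested.

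Smarca4 encodes BRG1, the main ATPase of BAF in neural progenitors. On 1426804_at it read 4655, 3907 and 6808 units in early and 5389, 5970 and 6625 units in late replicates 1 to 3. Early arrays held both the lowest and the highest value. The log2 difference was -0.26 (95% interval -0.88 to 0.36, adjusted p = 0.488), and on 1426805_at it was -0.08 (95% interval -0.67 to 0.51, adjusted p = 0.843).

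Smarca2 encodes BRM, the alternative ATPase, of which a complex holds one or the other. On 1430526_a_at it read 2700, 2336 and 2097 units in early and 1072, 1174 and 1130 units in late replicates 1 to 3. The late arrays were nearly equal and all below the early ones. The means were 2377 ± 304 and 1125 ± 51.2 units (SD, n = 3 each), a log2 difference of 1.07 ± 0.18 (SE), or 2.10-fold higher in early cells (adjusted p = 0.00889). The second probe set, 1452333_at, lay near background at 73.4 to 143 units (log2 difference 0.03 ± 0.31, adjusted p = 0.956) and could show little. The call rests on the brighter one, whose suffix _a marks transcripts of 1 gene.

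**Figure D2:**
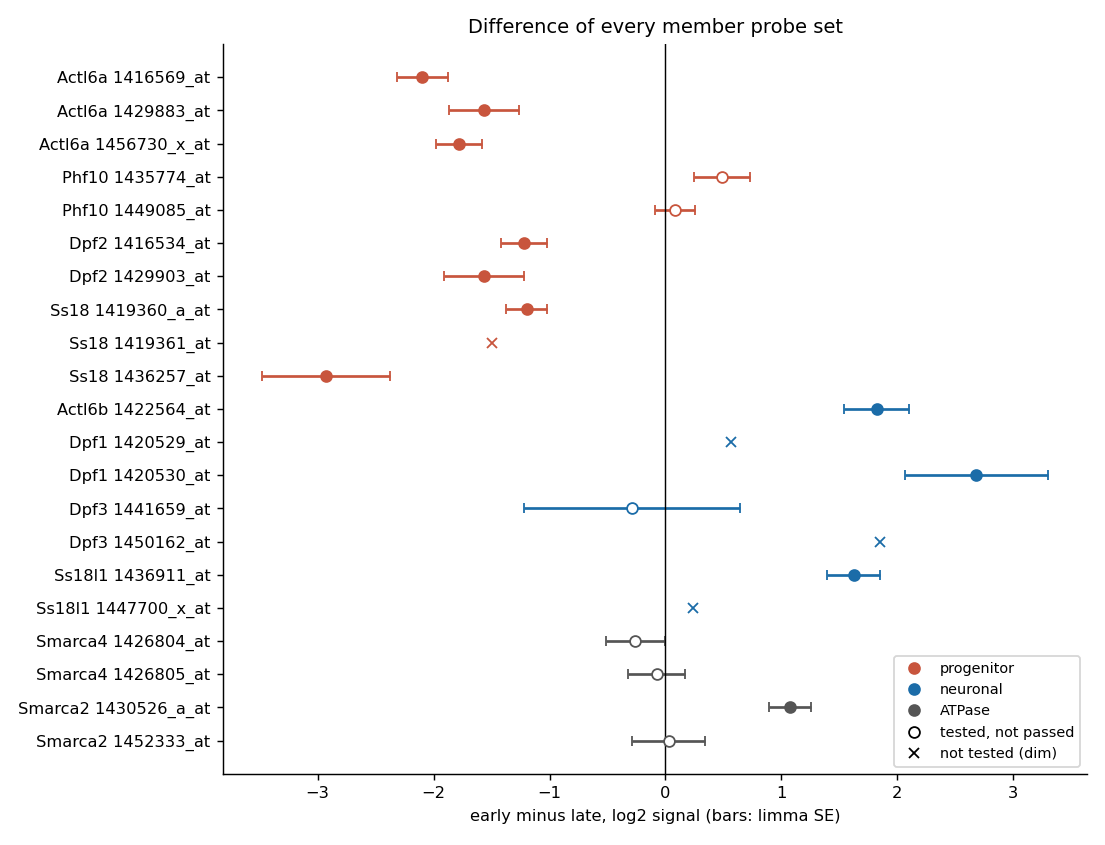
Log2 difference, early minus late, of each of the 21 probe sets, with bars for the limma standard error; filled circles passed an adjusted p of 0.05, open circles were tested and did not pass, and crosses were too dim to be tested. All 7 called probe sets of progenitor subunits lie left of 0 and the 3 called probe sets of neuronal subunits lie right of it, with Smarca2 1430526_a_at the 1 called ATPase probe set.

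Each neuronal or alternative subunit was also set beside a partner. Phf10 and Dpf2 both give way to Dpf1 and Dpf3, so pairing Dpf1 with Phf10 and Dpf3 with Dpf2 was a choice. Phf10 had a log2 difference of 0.08 and Dpf2 of -1.22, so the choice bears on the size of these ratios. The log2 ratio of each subunit to its partner was taken within each array, where scaling cancels, and set against the mean of the late arrays. It describes unequal change and not which subunit was more abundant. For Actl6b over Actl6a it was 4.06, 3.82 and 2.93 in early and -0.34, 0.52 and -0.17 in late replicates 1 to 3, so the ratio was 12.2-fold higher in early cells. Early replicate 3 was the least shifted early array but still far above every late array.

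For Ss18l1 over Ss18 the same quantity was 3.18, 2.74 and 2.56 in early and -0.18, 0.14 and 0.04 in late replicates, a 7.08-fold higher ratio. For Smarca2 over Smarca4 it was 1.62, 1.67 and 0.71 against 0.08, 0.06 and -0.14, a 2.52-fold higher ratio. Neither pair overlapped between groups. For Dpf1 over Phf10 the mean difference was 2.60, also without overlap, with 1.46 in late replicate 2 against 2.33 in the lowest early array. Its size is uncertain, since Dpf1 was below the array median in late replicates 1 and 3. It was 3.33 without late replicate 2, 1.96 without replicate 3 of both groups and 2.21 with low signals set to the array median. For Dpf3 over Dpf2 the early values ran from -1.33 to 2.42 and overlapped with the late values, which ran from -0.74 to 0.76. These ratios restate the signals above and were not tested.

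**Figure D3:**
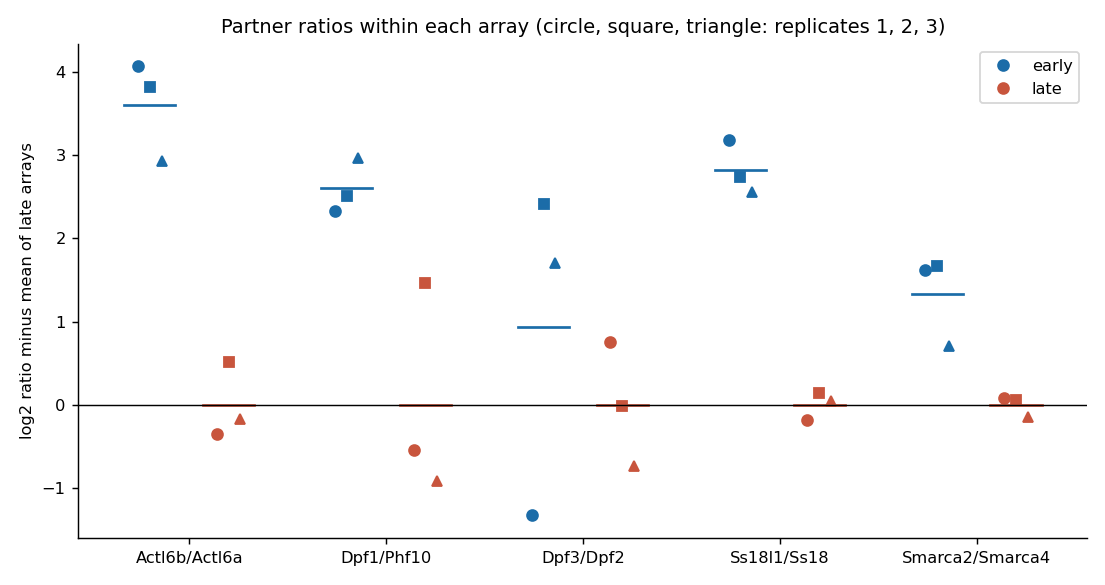
Log2 ratio of the neuronal (or alternative) subunit to its partner on each of the 6 arrays, minus the mean of the late arrays, with lines for group means. Early arrays lie above late arrays for Actl6b/Actl6a, Dpf1/Phf10, Ss18l1/Ss18 and Smarca2/Smarca4, and the groups overlap for Dpf3/Dpf2.

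Of 12 other BAF subunits, tested by their brightest probe sets, 2 were higher in early cells, none was higher in late cells and 10 did not pass. These include paralogues, such as Smarcc1 and Smarcc2, and are not a fixed core. The early count is near the share of 16.2% over all genes tested, of which 13.9% were higher in late cells. The median log2 difference was 0.06, over genes that ran in both directions. Smarcd3, the BAF60c subunit, was at 1952 ± 473 units in early and 407 ± 38.9 units in late cells (SD, n = 3, log2 difference 2.23, adjusted p = 0.00251). Bcl7c, a small accessory subunit, was at 2379 ± 250 and 684 ± 35.3 units (log2 difference 1.79, adjusted p = 0.00197). The core subunit Smarcb1 was at 3740 ± 290 and 3965 ± 353 units (log2 difference -0.08, adjusted p = 0.757). Of the scaffold pair, Smarcc1 had a log2 difference of -0.65 (adjusted p = 0.0551) and Smarcc2 of 0.67 (adjusted p = 0.0697), and neither passed although neither overlapped between groups.

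Among 6 subunits particular to the PBAF and ncBAF forms, 1 passed in each direction and 4 did not pass (median log2 difference -0.19), shares near the 16.2% and 13.9% of all genes. Brd7 of PBAF was higher in late cells (711 ± 133 against 1340 ± 46.8 units, adjusted p = 0.0198), and this was lost without late replicate 1 (0.0667), 2 (0.0760) or 3 (0.0821). Bicral of ncBAF was higher in early cells (836 ± 16.6 against 511 ± 58.4 units, adjusted p = 0.0299), and this was lost without early replicate 1 (0.0558) or 3 (0.0517) and without late replicate 1 (0.0938), 2 (0.114) or 3 (0.0789). With arrays centred on their medians in place of the trimmed mean, Bicral did not pass either (0.0723).

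Actl6a also serves in the INO80, TIP60 and SRCAP complexes, so their other subunits were examined. Of 17 tested, 2 were higher in late cells, none was higher in early cells and 15 did not pass, with a median log2 difference of 0.02. The late count is near the share of 13.9% over all genes. The 2 were the paired AAA+ ATPases Ruvbl2 (log2 difference -1.07, adjusted p = 0.0226) and Ruvbl1 (log2 difference -0.90, adjusted p = 0.0238). The Ruvbl2 call was lost without late replicate 1 (0.0789), 2 (0.0807) or 3 (0.0788). The Ruvbl1 call was lost without early replicate 1 (0.0527) or late replicate 1 (0.0805) or 3 (0.0821).

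Of 18 remodellers outside BAF, 4 were higher in early cells, 7 were higher in late cells and 7 did not pass (median log2 difference -0.11), against 16.2% and 13.9% of all genes. Chd5, a neuronal CHD remodeller, was at 1668 ± 266 units in early and 161 ± 30.7 units in late cells (SD, n = 3, log2 difference 3.38, adjusted p = 0.00115). Smarca1, the ISWI ATPase SNF2L, was 2.54-fold higher in early cells (adjusted p = 0.0113), which was lost without late replicate 2 (0.05004) or 3 (0.0514). The other 2 early genes, Chd3 and Chd9, fall outside the naming rule and were named after their values were seen. Hells, a remodeller of dividing cells, was at 375 ± 31.9 units in early and 2505 ± 191 units in late cells (log2 difference -2.74, adjusted p = 0.00113). Baz1a, an ISWI partner, had a log2 difference of -2.56 (adjusted p = 0.00310).

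The exchange of Actl6a for Actl6b is known to depend on the loss of the repressor REST and on microRNAs that target Actl6a. Of 8 genes of the REST and PTBP repressors and their cofactors, 3 were higher in late cells, 1 was higher in early cells and 4 did not pass (median log2 difference -0.94), against 13.9% and 16.2% of all genes. REST itself read 293, 156 and 652 units in early and 567, 679 and 650 units in late replicates 1 to 3. Early replicate 3 was as high as the late arrays, and the log2 difference of -1.02 did not pass (adjusted p = 0.188). Ctdsp2, a small phosphatase of the REST complex, was at 1791 ± 198 units in early and 5967 ± 402 units in late cells (SD, n = 3, log2 difference -1.74, adjusted p = 0.00224). Its relative Ctdsp1, named after its values were seen, had a log2 difference of -1.36 (adjusted p = 0.00344). The corepressor Rcor1 had a log2 difference of -1.86 (adjusted p = 0.0303), lost without late replicate 1 (0.0799), 2 (0.0988) or 3 (0.0972). The probe sets of Ctdsp2 and Rcor1 carry the suffix _s, used where probes match more than 1 transcript. The phosphatase Ctdspl went the other way, with a log2 difference of 0.88 (adjusted p = 0.0166), lost without late replicate 1 (0.0700) or 3 (0.0776).

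**Figure D4:**
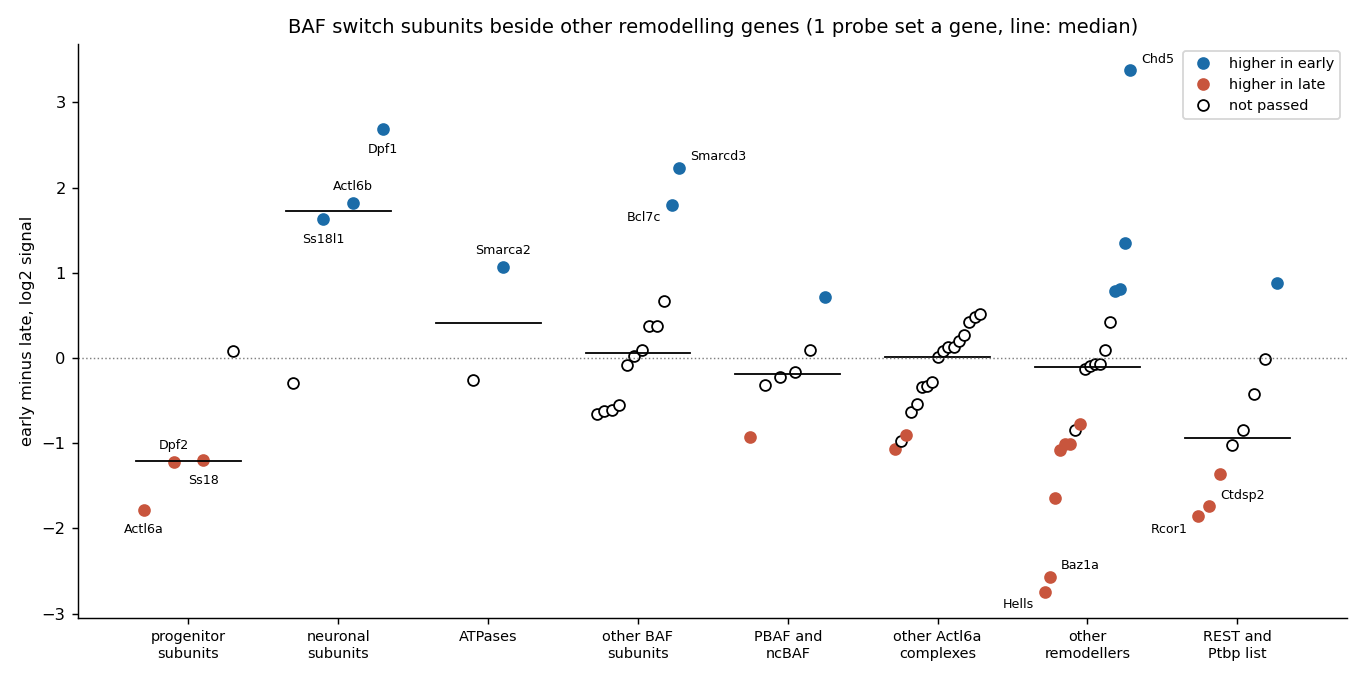
Log2 difference, early minus late, of the brightest probe set of each gene, where tested, by list, with a line for each list's median. Filled circles passed an adjusted p of 0.05. The progenitor subunits have a median of -1.21 and the neuronal subunits of 1.72, while the 12 other BAF subunits have a median of 0.06 over genes that ran in both directions.

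Over the 6 arrays, the genes whose log2 signals were most like those of Actl6a were Lig1 (Pearson r = 0.9997), Usp46 (0.9986) and Cdca5 (0.9979). Lig1 is the replicative DNA ligase and Cdca5 is sororin, a cohesin regulator. For Actl6b they were Mrps26 (0.9987), Rraga (0.9967) and Nkap (0.9951). These values describe 6 arrays that fall into 2 groups, and 620 of 11070 genes exceeded an r of 0.95 with Actl6a and 501 with Actl6b.

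Markers of dividing cells and most markers of neurons differed between the groups too. All 9 cycling-cell genes tested were higher in late cells, with a summed signal of 3457 to 4647 units in early and 31774 to 33904 units in late arrays. Mki67, the proliferation antigen Ki-67, was at 1067 ± 119 and 11769 ± 692 units (SD, n = 3). Of 10 neuronal genes, 6 were higher in early cells and 4 did not pass, with sums of 105598 to 110261 and 48253 to 55207 units. Beside both counts, 16.2% of all genes tested were higher in early and 13.9% in late cells. Mapt, the axonal protein tau, was at 12118 ± 887 and 1454 ± 94.2 units. Among those that did not pass, Rbfox3, the neuronal nuclear antigen NeuN, was at 2193 ± 455 units in early and 3540 ± 336 units in late cells (log2 difference -0.71, adjusted p = 0.0608), with every late array above every early array. The synaptic vesicle protein gene Syt1 had a log2 difference of -0.04 (adjusted p = 0.885). The part of the share of cycling cells in the subunit differences was not tested.

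Markers of the labelled lineage differed in both directions. Atoh1, the driver of the label, was at 690 ± 273 units in early and 8642 ± 1588 units in late cells (SD, n = 3). Of 8 genes of the r1 and Atoh1 lineage, 4 were higher in late cells, 2 in early cells (Lhx9 and Lhx2) and 2 did not pass. The shares over all genes tested were 13.9% higher in late and 16.2% in early cells. The summed signal of the 8 genes was 29687 to 32210 units in early and 47672 to 53163 units in late arrays. Most of the early sum came from Zic1 (17921 ± 2622 against 26865 ± 1280 units, adjusted p = 0.0609). Pax6 had a log2 difference of -2.87 and Barhl1 of -2.29, both higher in late cells, and Lhx9 of 3.44. En1 was near background, at 94.1 ± 18.1 and 136 ± 42.0 units. The Lhx2 call was lost without late replicate 1 (0.0525).

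Several markers of other cell types moved with the neuronal subunits. For glia, 2 of 4 genes tested were higher in early cells (Olig1 and Olig2) and 1 in late cells (Pdgfra), with sums over 6 genes of 2597 to 3207 units in early and 966 to 1225 units in late arrays, while the defining astrocyte genes Gfap and Aqp4 were below the median on all 6 arrays. For GABAergic cells, 2 of 4 tested were higher in early cells (Gad1 and Gad2), with sums over 6 genes of 916 to 1793 units against 678 to 998 units. Slc32a1 did not pass (log2 difference 1.84, adjusted p = 0.194). Lhx1 went the other way, at 242 ± 160 against 412 ± 71.2 units (log2 difference -1.04), and did not pass either (adjusted p = 0.243). Over all genes tested, 16.2% were higher in early cells and 13.9% in late cells. For microglia, 1 of 2 tested was higher in early cells (Csf1r), with sums over 5 genes of 466 to 990 units against 234 to 373 units and Aif1 and C1qa below the median on all 6 arrays. Endothelial and mesenchymal lists had 2 genes tested each and none passed. Their sums over 5 genes were 391 to 2059 against 194 to 1128 units and 245 to 1675 against 268 to 480 units, with Pecam1, Cdh5, Dcn and Lum below the median on all 6 arrays. The 3 erythroid genes were below it on all 6, with sums of 93.6 to 202 against 56.6 to 89.9 units.

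Several of those calls were lost when 1 array was left out, with log2 differences of the same sign. Gad1 (log2 difference 1.39, adjusted p = 0.0486) was lost without early replicate 1 (0.110) or 3 (0.110) or late replicate 1 (0.103), 2 (0.129) or 3 (0.152), where the difference was 1.16, 1.19, 1.52, 1.39 and 1.27. Gad2 (1.69) was lost without late replicate 1 (0.0667) or 3 (0.0668), at 1.57 and 1.51. Pdgfra (-1.71) was lost without late replicate 1 (0.0607) or 3 (0.0510), at -1.53 and -1.79. Csf1r (1.79) was lost without early replicate 1 (0.0658) or late replicate 1 (0.0947), 2 (0.0693) or 3 (0.0790), at 1.69, 1.61, 1.90 and 1.87. The part of these cell types and of the higher Actb 3′ to 5′ ratio of the early arrays in the subunit differences was not tested.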

How the data were processed

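Total RNA of sorted cells was measured on 6 Affymetrix mouse arrays, 3 in each group. The deposited values are intensities, 1 linear signal per probe set and array, made with MAS5 per the submitters' processing notes; its version is not given in the sources used here. The mean of an array after 2% was trimmed from each end came to 500 when averaged over the 6 arrays. Where arrays are scaled to such a mean, a shift shared by all genes cannot be seen. The number of arrays limits the precision.

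Signals were taken to log2 without further scaling and fitted in limma 3.58.1 (R 4.3.3) with lmFit and eBayes, early against late, two-sided, on the 23491 of 45101 probe sets above the array median on at least 3 of 6 arrays, with 64 control probe sets left out. P-values were Benjamini-Hochberg adjusted over all of them. A gene's representative was its tested probe set with the highest mean signal. The code was tested on simulated data. The text names all 10 subunits and up to 2 genes a direction with the largest called difference in each other list. It also names the 3 genes most correlated with Actl6a and with Actl6b. Smarcb1, Smarcc1, Smarcc2, Rest, Ctdsp1, Chd3, Chd9, Rbfox3, Syt1, Zic1, Barhl1, En1, Lhx1, Slc32a1 and the markers below the array median were named outside this rule, with their values known. The subunits and lists were chosen with earlier results of these data known. Genes without a probe set of their own were not analysed here. Alternatives covered scaling, filter, low signals, variance model, threshold, the value per gene, the replicate block and leaving out arrays.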

Additional observations from a re-analysis of the deposited data

How the results depend on the processing

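No subunit that passed changed direction under any alternative run. Without the filter, 2 probe sets were higher in early and 3 in late cells, and 2 genes were higher in early cells, with Dpf2 at an adjusted p of 0.05003, Smarca2 at 0.0589 and Dpf1 at 0.0799. At an adjusted p of 0.01, 4 probe sets were higher in late cells. With the mean over the probe sets of a gene, dim ones included, 2 genes were higher in early cells, and Dpf1 (0.158) and Smarca2 (0.0987) were lost. With representatives of suffix _s, _x or _a replaced where a gene had another probe set, Smarca2 was lost (0.956). There the dim 1452333_at took the place of its _a probe set, which was set aside by suffix and not for matching other genes. With replicate 3 of both groups left out, 1 probe set was higher in early and 3 in late cells, and 1 gene in each direction. Leaving out 1 array at a time gave 3 to 4 probe sets higher in early and 5 to 7 in late cells, and 3 to 4 and 3 to 3 genes. The fit with the replicate block gave 4 and 7 probe sets and 4 and 3 genes, as without it, but ended the calls of Brd7 (0.0642), Bicral (0.101), Ruvbl1 (0.0829), Ruvbl2 (0.0633), Rcor1 (0.0588), Ctdspl (0.0670), Gad1 (0.0741) and Csf1r (0.0532); same-numbered arrays did not deviate together (correlations of -0.03, -0.07 and -0.01), so the numbers were not taken to pair samples. Actl6a, Ss18, Actl6b and Ss18l1 passed in 15 of 15 alternatives on probe sets, with adjusted p-values up to 0.0223, 0.0424, 0.0359 and 0.0321, and in the fits on 1 value per gene; with replicate 3 of both groups left out, Ss18 and Ss18l1 did not. Dpf1 passed in 9 of 15. Without the filter, the calls of those 8 other genes and of Smarca1, Lhx2, Gad2 and Pdgfra were lost, with adjusted p-values from 0.0534 to 0.142. Signals near the array median, as for Dpf3 and Dpf1 in late cells, limit the size of a difference. Late Actl6b signals, at 141 to 202 units, were above the array medians of 97.5 to 111 units but not far from them.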
